A study of Mus musculus with 16 samples.

Results

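Smooth muscle contractile genes were followed in medullary thymic epithelial cells (mTEC). The 10 genes were Acta2, Actg2, Myh11, Myl9, Tpm2, Cald1, Cnn1, Tagln, Lmod1 and Des, found by the Ensembl identifier of each mouse symbol among 53464 Ensembl genes in a count table of 89407 rows. They were selected on measured values of these libraries: Acta2 and Tagln were lower in mature mTEC of Rbfox2 tKO mice, and Tagln was far lower in mature than in immature mTEC. These 2 contrasts are therefore described below with no test for any of the 10 genes. The immature libraries entered the second contrast as a whole, and come from the same mice, so comparisons among them are not fully apart from the choice.

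RNA was sequenced from mature and immature mTEC of 8 mice, giving 16 libraries. Mice of the Rbfox1 line were homozygous for a floxed Rbfox1 allele (Rbfox1 lox/lox) and mice of the Rbfox2 line for a floxed Rbfox2 allele (Rbfox2 lox/lox), controls included. The tKO mice also carried Cre on 1 Foxn1 allele (Foxn1 wildtype/cre), which restricts deletion to cells that have expressed Foxn1, the thymic epithelium, while controls had 2 wild-type Foxn1 alleles. Each line had 2 tKO and 2 control mice, 1 male and 1 female of each, labelled C57BL/6 and 4 to 6 weeks old, and untreated. The published methods instead give a background mixed from C57BL/6J and another inbred strain and an age at the lower end of that range, and describe controls as littermates of the same sex. The sort took CD45-negative EpCAM-positive Ly51-negative UEA1-binding cells with high (mature) or low (immature) MHC class II, 10000 cells a library by the labels. A library was 1 mouse and not a pool, so each group has n = 2.

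Smooth muscle contracts when the regulatory light chain of myosin II is phosphorylated and myosin heavy chains pull on actin filaments, which are lined with tropomyosin and regulated by caldesmon and calponin. Many genes of this apparatus are activated together by serum response factor (SRF) with the coactivator myocardin or the myocardin-related factors MRTF-A and MRTF-B. SRF binds the CArG box, which is 2 C, 6 A or T, and 2 G. In the thymus, mTEC display proteins of peripheral tissues to developing T cells, and mature mTEC transcribe many such genes, while actomyosin genes are also used by epithelial cells, pericytes and fibroblasts for their own shape and tension.

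The upstream sequences of Acta2 and Myl9 are shown because the levels of these 2 genes ran closely together in immature mTEC and because, among the members searched, these windows held CArG boxes or near matches. RefSeq windows of 250 bases before the start (GRCm38.p6) were matched for 7 of 10 members. Tagln, Myh11 and Actg2 were not matched. A CArG box with 6 A or T was found in 1.47% of 32851 windows, and a box with at most 1 C or G among those 6 bases in 8.59%, the first kind being counted within the second. At least 2 such matches were present in 0.670% of windows, Acta2 and Myl9 among them, and the windows of Des, Lmod1, Tpm2, Cald1 and Cnn1 had none. The box reads the same way on both strands, so both were searched at once. Each match is in capitals, 5′ to 3′ on the strand of the gene:
Myl9, 161 bases before the start, chr2:156775293-156775322, plus strand: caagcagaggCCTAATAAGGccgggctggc
Myl9, 99 bases before the start, chr2:156775355-156775384, plus strand: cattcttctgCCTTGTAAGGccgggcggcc
Acta2, 84 bases before the start, chr19:34255438-34255467, minus strand: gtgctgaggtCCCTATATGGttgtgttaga
Acta2, 34 bases before the start, chr19:34255388-34255417, minus strand: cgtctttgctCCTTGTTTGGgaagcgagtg
The first Myl9 match has A or T at all 6 middle bases and the other 3 have 1 C or G there. Both Acta2 matches lie before the RefSeq start of the window but inside exon 1 (34255290 to 34255590) of the longer GENCODE transcript Acta2-201. These are matches of letters, and binding was not measured.

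Library totals were 3737884 to 4636367 counts in mature and 1506134 to 2430287 in immature mTEC, and levels are counts per 1000000 of normalised library size (CPM). The targeted gene Rbfox2 had 35 and 70 counts in mature Rbfox2 tKO libraries against 231 and 247 in their controls, and 34 and 54 against 157 and 195 in immature mTEC. The targeted gene Rbfox1 was at 29.6 and 33.9 CPM in mature Rbfox1 tKO libraries against 48.2 and 52.2 CPM in controls. In the immature state it was at 151 and 152 against 159 and 163 CPM, so there its gene total was nearly as high in tKO mice as in controls and gives little check of the genotype. Ddx3y had at least 100 counts in every library of a male and at most 3 in every library of a female. The mTEC markers Epcam and Krt8 were at 577 to 651 and 1587 to 1839 in the mature libraries and 708 to 798 and 1631 to 1914 CPM in the immature ones. The 6 blood cell markers summed to 54.1 to 69.2 and 12.4 to 56.6 CPM, with Cd4 and Hba-a1 the most abundant.

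In immature mTEC Tagln, Acta2 and Tpm2 were the most abundant of the members. Levels of different genes are compared as CPM per kilobase of merged exons, given as the median and range over 8 libraries. Tagln, which encodes the actin-binding protein transgelin, came first at 454 (288 to 583), before Acta2, smooth muscle alpha-actin, at 303 (183 to 481) and Tpm2, beta-tropomyosin, at 252 (211 to 283). Myl9, the regulatory light chain of smooth muscle myosin, followed at 126 (83.3 to 194). The ranges of Tagln, Acta2 and Tpm2 overlapped in turn, while Myl9 overlapped Acta2 but lay below Tpm2 and above Cald1. Cald1, caldesmon, had 55.2 (43.8 to 71.0), Myh11, the smooth muscle myosin heavy chain, 54.8 (38.3 to 61.2) and Des, the intermediate filament protein desmin, 35.0 (14.6 to 46.3). Lmod1, leiomodin, which nucleates actin filaments, had 13.8 (7.04 to 22.0). Each of these 4 overlapped its neighbour in the order. Actg2, the gamma-actin of enteric smooth muscle, had 1.21 (0 to 4.22), and Cnn1, calponin, had 3 counts in all 8 libraries together.

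In mature mTEC the order was different, and Tpm2 and Myh11 came first. On the same per-kilobase scale Tpm2 was at 51.5 (46.7 to 63.3), Myh11 at 43.7 (34.9 to 55.4), Acta2 at 21.6 (19.6 to 35.6) and Des at 14.4 (9.30 to 19.0). Tagln was at 9.22 (4.46 to 20.2), Cald1 at 6.70 (5.67 to 8.72) and Cnn1 at 6.46 (5.15 to 8.16). Actg2 was at 3.51 (2.79 to 5.57), Myl9 at 3.45 (2.03 to 7.18) and Lmod1 at 1.83 (1.03 to 2.42). Every neighbour in this order overlapped the next except Acta2, all of whose libraries were above those of Des. Cald1 has 12041 merged exon bases over its isoforms, against 1162 for Myl9, so the per-kilobase values depend on which isoforms were present. No 75-base stretch of any member was shared with another gene, so the muscle actins could be counted apart. On the opposite strand, Tagln exons overlap Gm48529 (1241 bases, 0 to 5 counts) and Pcsk7 (108 bases, 46 to 164 counts). Des exons overlap Gm15179 (220 bases, 0 to 1 count). The published methods describe stranded libraries, but the sources do not say whether counting used the strand. Whether reads from overlapping strands were counted apart is therefore not known.

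**Figure D1:**
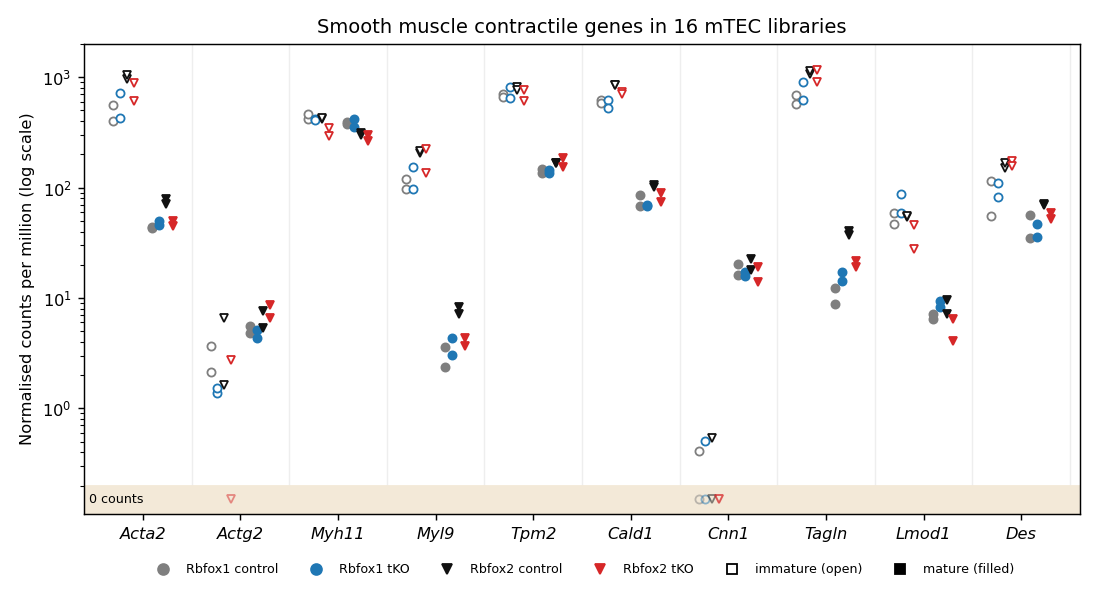
Level in CPM (log axis) of the 10 genes in 16 libraries, open symbols for immature and filled for mature mTEC, with 1 point per mouse and 2 mice per condition. Points in the shaded strip are libraries with 0 counts; Tagln, Myl9 and Acta2 are far lower in mature mTEC, while Cnn1 has 52 to 94 counts in each mature library and at most 1 in each immature library.

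Between the 2 maturation states, 8 of the 10 genes had a lower mean CPM in mature mTEC and Cnn1 and Actg2 a higher one. This contrast helped to choose the genes, so the values are a description. Of the genes that were lower, Tagln differed most, with means of 21.4 (mature) and 885 CPM (immature), a 41.4-fold difference. In single mice the log2 ratio of mature to immature Tagln ran from -6.29 in Rbfox1 control mouse 2 to -4.74 in Rbfox2 control mouse 1. Both Rbfox2 control mice (-4.74 and -4.93) showed a smaller difference than the other 6 mice, whose values were -5.39 or lower.

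Myl9 and Acta2, the light chain and the actin, came next. The mean of Myl9 was 4.62 CPM in the mature and 156 CPM in the immature state, 33.8-fold lower, with log2 ratios of -5.94 to -4.67 over the mice. Acta2 had 53.3 against 705 CPM, 13.2-fold lower, with log2 ratios of -4.16 to -3.23. For these genes no mature library came near an immature library of any mouse: the highest mature library of Acta2 had 78.2 CPM and the lowest immature one 403 CPM.

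The filament regulators were lower by smaller factors. Cald1 was 8.28-fold lower in mature mTEC (83.0 against 687 CPM), Lmod1 7.44-fold lower (7.31 against 54.4 CPM) and Tpm2 4.69-fold lower (154 against 725 CPM). Des was 2.37-fold lower (53.2 against 126 CPM), by log2 ratios of -1.75 to -0.65. Myh11 was nearly level, with means of 339 (mature) and 399 CPM (immature), and it was lower in mature mTEC in 6 mice and higher in 2. RNA of the heavy chain Myh11 was thus at similar levels in both states while that of the light chain Myl9 differed 33.8-fold. Among non-muscle heavy chains, Myh9 was 2.22-fold lower in mature mTEC (743 against 1650 CPM) and Myh10 was level (39.5 against 37.95 CPM). The non-muscle light chain Myl12a was 2.12-fold lower (128 against 271 CPM).

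Cnn1 ran the other way. The mature libraries had 76 and 94 (Rbfox1 control), 80 and 67 (Rbfox1 tKO), 77 and 91 (Rbfox2 control) and 52 and 83 counts (Rbfox2 tKO). In immature mTEC 5 libraries had 0 counts and 3 had 1, so the pooled ratio was 91.4 with an exact 95% interval of 31.1 to 445 that covers counting error only. Actg2 had 20 to 32 counts in mature and 0 to 11 in immature libraries. Its mean was 6.03 against 2.46 CPM, higher in mature mTEC in all 8 mice.

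Over all 17442 genes kept, 5.77% were over 2-fold lower in mature mTEC in all 8 mice, as 6 of the 10 members were (Tagln, Myl9, Acta2, Cald1, Lmod1 and Tpm2). Another 18.8% were over 2-fold higher in all 8 mice, as was Cnn1. The median log2 ratio was 0.05 over all genes and -2.56 over the 10 members, values fixed in part by how the members were chosen. In bulk libraries fewer cells of a type and less RNA per cell cannot be told apart.

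**Figure D2:**
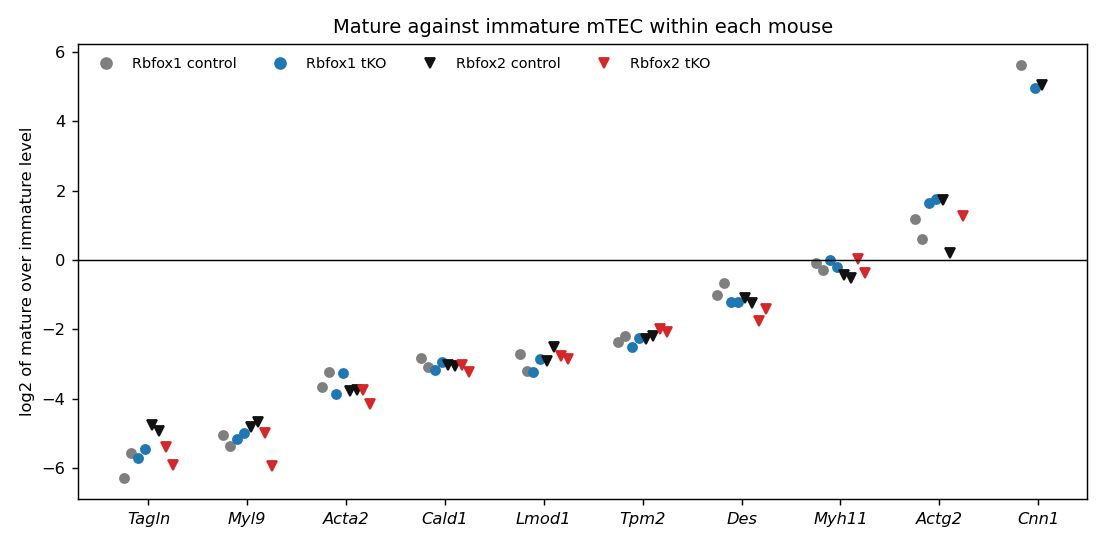
Log2 of the mature over the immature level within each mouse for the 10 genes, 1 point per mouse, coloured by condition, with points under the zero line lower in mature mTEC. Mice with 0 counts of Cnn1 or Actg2 in the immature library have no point; the 2 Rbfox2 controls (black triangles) sit highest of the 8 mice for Tagln.

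Upstream factors and related genes gave the surroundings of this contrast. Myocd, which encodes myocardin, had 7 to 18 counts in each mature library and 0 in all 8 immature libraries. Against a floor of 3 counts set for the immature group, its level in mature mTEC was 14.9-fold higher. For the counts themselves, 101 against 0, the exact 95% interval of the ratio begins at 11.9. That interval also covers counting error in the mature libraries. Srf was 1.92-fold lower in mature mTEC (68.7 against 132 CPM) and Mrtfb 1.72-fold lower (41.8 against 72.0 CPM), both in all 8 mice. Mrtfa had 40.8 against 53.4 CPM, lower in 6 mice and higher in 2. Of 12 other cytoskeleton genes of smooth muscle, 11 were lower in mature mTEC in all 8 mice, against 25.5% of all genes. Flna (filamin A, an actin crosslinker), the most abundant of the list by CPM in immature mTEC, was 7.004-fold lower. Csrp1, the most abundant per kilobase in both states, was 3.32-fold lower. Of 9 contraction signalling genes kept, 3 were lower in all 8 mice, 1 (Prkg1, the cGMP-dependent kinase that relaxes smooth muscle) was higher in all 8, and 5 differed in direction between mice.

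Non-muscle counterparts were also mixed. Of 11 paralogs, 6 were lower in mature mTEC in all 8 mice, 2 higher in all 8 and 3 mixed. The mixed ones include Actg1, which had only 3 to 23 counts in mature and 0 to 11 in immature libraries, so its direction is uncertain. Actb, cytoplasmic beta-actin, had means of 3290 (mature) and 2624 CPM (immature). The calponin paralog Cnn2 was 6.04-fold lower in mature mTEC, the reverse of Cnn1, and Cnn3 was level at 419 and 433 CPM.

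Markers of other cell types moved with maturation too, and their part in the values above was not tested. The summed level of 6 basal and myoepithelial markers was 1970 to 2743 CPM in mature libraries and 8091 to 11041 CPM in immature ones, with all 6 lower in mature in all 8 mice. Krt5 was the most abundant of them in immature and Krt17 in mature mTEC. That of 7 pericyte and mural markers was 754 to 984 and 1519 to 2046 CPM, carried by Rgs5 (627 to 855 and 1339 to 1837 CPM). Of these markers Pdgfrb and Cspg4 were higher in mature mTEC in all 8 mice, while Notch3, Rgs5 and Mcam were lower in all 8. Abcc9 was lower in 4 mice and higher in 4, and Kcnj8, with at most 10 counts a library, lower in 6 and higher in 1. The 6 fibroblast markers summed to 341 to 636 and 342 to 2765 CPM, and the 5 endothelial markers to 25.0 to 35.5 and 21.8 to 207 CPM. Of the fibroblast markers 4 were lower in mature mTEC in all 8 mice and 2 were mixed, and of the endothelial markers 1 was lower and 4 were mixed. No marker of these 4 lists was at 0 in all libraries of a state. The 10 striated muscle genes summed to 138 to 227 and 77.8 to 198 CPM, with 5 higher in mature mTEC in all 8 mice, 2 lower in all 8 and 3 mixed.

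In mature mTEC of the Rbfox2 line, Tagln, Acta2 and Myl9 were lower in tKO than in control mice. The contrast served to choose the genes, so it has no test here. Tagln had 40.1 and 37.5 CPM in the controls and 21.4 and 19.3 CPM in the tKO mice, that is 38.8 ± 1.84 against 20.3 ± 1.52 (SD, n = 2) and 1.91-fold lower. Acta2 had 70.9 and 78.2 CPM in the controls and 45.01 and 49.6 CPM in the tKO mice, 1.58-fold lower. Myl9 had 31 and 34 counts in the controls and 16 in each tKO library, 1.94-fold lower on the CPM scale. For all of these genes both tKO libraries were under both controls.

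The other members were lower by less or not at all. Lmod1 was 1.601-fold lower in tKO mice, on 31 and 39 against 15 and 28 counts. Des had 70.2 and 71.4 CPM in controls and 51.8 and 59.0 CPM in tKO mice, 1.28-fold lower, and Cald1 had 105 and 101 against 90.0 and 74.8 CPM, 1.25-fold lower. Myh11 was only 1.08-fold lower, with 309 and 298 against 297 and 265 CPM. The groups overlapped for Cnn1 (18.0 and 22.3 against 14.1 and 19.0 CPM), Tpm2 (167 and 167 against 153 and 184 CPM) and Actg2 (23 and 31 against 32 and 29 counts). In all, 8 of 10 means were lower in tKO mice and in 7 genes both tKO libraries lay under both controls, a pattern found in 17.2% of 18021 genes. The median log2 ratio was -0.34 over the members and 0.0051 over all genes, and nothing is read from these counts because the contrast was used in the choice.

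The level in the control group sets part of this description. Rbfox1 controls, which carry floxed Rbfox1 and no Cre, had 8.87 and 12.2 CPM of Tagln in mature mTEC, so the Rbfox2 controls were 3.68-fold above them and the Rbfox2 tKO mice (21.4 and 19.3 CPM) were also above them. Acta2 was 1.71-fold higher in Rbfox2 than in Rbfox1 controls (74.6 against 43.5 CPM), and the Rbfox2 tKO mean of 47.3 CPM was near that of the Rbfox1 controls. Myl9 was 2.62-fold higher in Rbfox2 controls (7.79 against 2.97 CPM) and Des 1.55-fold higher (70.8 against 45.5 CPM). Myh11 was lower in both Rbfox2 controls than in both Rbfox1 controls (304 against 384 CPM). These control libraries belong to the contrast used in the choice, and the difference between lines was not tested in mature mTEC. The share of all genes in which the controls of the 2 lines did not overlap was not taken, so nothing is read from these positions.

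Marker sums of these libraries are given beside the values, and their part was not tested. Pericyte and mural markers summed to 902 to 984 CPM in Rbfox2 controls, 858 to 860 CPM in Rbfox2 tKO, 754 to 838 CPM in Rbfox1 controls and 771 to 776 CPM in Rbfox1 tKO mature libraries. Fibroblast markers summed to 453 to 478 CPM in Rbfox2 controls and 586 to 636 CPM in Rbfox2 tKO libraries. Endothelial markers summed to 25.0 to 25.3 and 25.2 to 26.6 CPM, and basal markers to 2632 to 2743 and 2484 to 2718 CPM.

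**Figure D3:**
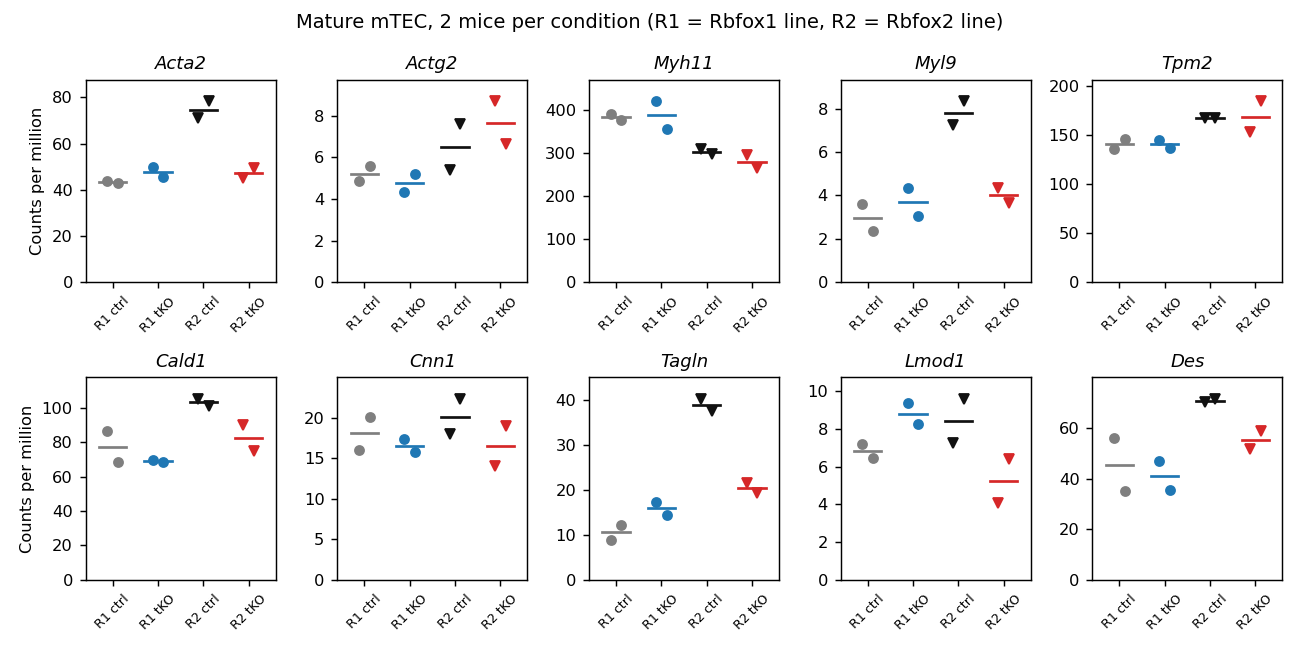
Level in CPM in mature mTEC for each of the 10 genes, 2 mice per condition as points and their mean as a line, on axes that start at 0. In Tagln, Acta2 and Myl9 both Rbfox2 controls are the highest of the 8 libraries, and Tagln had 40.1 and 37.5 CPM in them. These controls belong to the contrast used to choose the genes, and the share of all genes with this pattern was not taken.

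The Rbfox1 line shows the same genes where Rbfox1, another splicing factor of the family, was targeted. In mature mTEC, the 2 Rbfox1 tKO libraries had 17.4 and 14.3 CPM of Tagln against 8.87 and 12.2 CPM in the controls, and 49.9 and 45.4 against 43.9 and 43.1 CPM of Acta2. Both tKO libraries were above both controls in these genes and in Lmod1 (43 and 35 against 34 and 30 counts), a pattern found in 15.6% of 18021 genes. These 3 members were lower in both Rbfox2 tKO libraries, a combination found in 2.64% of genes, from which nothing is read because the choice used the Rbfox2 contrast. None of the 10 members was called, where a call needed an adjusted p under 0.05 and a fold change over 2 in edgeR, and 0.0166% of genes were called. The estimate for Tagln was a log2 fold change of 0.59 (SE 0.21, unadjusted p = 0.0111, adjusted p = 0.9996), and it was the 1 member with an unadjusted p under 0.05, as 3.35% of all genes had. The other 9 members ran from -0.17 (Cald1) to 0.37 (Lmod1), and DESeq2 called 0 members as well. The counts of Myl9, 20 and 13 in tKO and 17 and 11 in control libraries, averaged under 20 per library and were too low for an estimate of its own.

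In immature mTEC of the Rbfox1 line the tKO and control groups overlapped in Acta2 and Tagln. Acta2 had 723 and 431 CPM in tKO and 558 and 403 CPM in control mice, and Tagln had 905 and 628 against 695 and 572 CPM. No member of the 8 tested was called (0.0306% of 13060 genes were), by edgeR or DESeq2. Lmod1 had 188 and 116 against 109 and 146 counts and a log2 fold change of 0.46 (SE 0.20, adjusted p = 0.818), the 1 member with an unadjusted p under 0.05 (0.0325), as 5.90% of all genes had. The rest ran from -0.09 (Myh11) to 0.27 (Tagln).

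In immature mTEC of Rbfox2 tKO mice, 7 of 8 members tested had a negative log2 fold change, against 50.1% of all genes, and none was called (0.0536% of 13060 genes were). These libraries come from the mice whose mature libraries served to choose the genes and were part of the immature group in that choice, so the count is not independent of it. Acta2 had 608 and 887 CPM in tKO and 973 and 1056 CPM in control mice, a log2 fold change of -0.42 (SE 0.20, adjusted p = 0.786). The groups overlapped for Tagln, with 900 and 1158 against 1076 and 1147 CPM and a log2 fold change of -0.09 (SE 0.15, adjusted p = 0.960). Both tKO libraries were below both controls in Acta2, Myh11, Lmod1 and Cald1, a pattern found in 19.5% of all genes, and the tKO libraries themselves were far apart for Acta2 and Myl9.

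Myh11 had the smallest p of the members in that comparison. It had 291 and 345 CPM in Rbfox2 tKO and 418 and 430 CPM in control mice, a log2 fold change of -0.40 (SE 0.11, unadjusted p = 0.00183, adjusted p = 0.385). Lmod1 had 40 and 67 against 100 and 92 counts, with -0.54 (SE 0.24, adjusted p = 0.767), and Cald1 had 733 and 706 against 855 and 851 CPM, with -0.23 (SE 0.10, adjusted p = 0.754). The 4 members Acta2, Myh11, Lmod1 and Cald1 had an unadjusted p under 0.05, as did 6.25% of all genes. Myl9 (-0.18), Tpm2 (-0.17) and Des (0.08) did not. The median was -0.21 over the members and -0.00022 over all genes, and DESeq2 called 0 members too. In the same libraries fibroblast markers summed to 2176 to 2765 CPM in tKO and 1847 to 2172 CPM in control mice, and endothelial markers to 147 to 207 and 63.9 to 121 CPM, of which none was called, and their part was not tested.

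The Rbfox2 effect minus the Rbfox1 effect was negative for all 8 members tested in immature mTEC, and none passed. The share of all genes with a negative difference was not taken. The Rbfox2 mice are also those whose mature libraries served in the choice, so nothing is read from this count. Lmod1 had the largest difference (log2 -1.002, SE 0.31, unadjusted p = 0.00529, adjusted p = 0.975), followed by Acta2 (-0.69, SE 0.28, adjusted p = 0.975) and Myl9 (-0.40, SE 0.29). The lowest adjusted p of the 8 was 0.975.

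**Figure D4:**
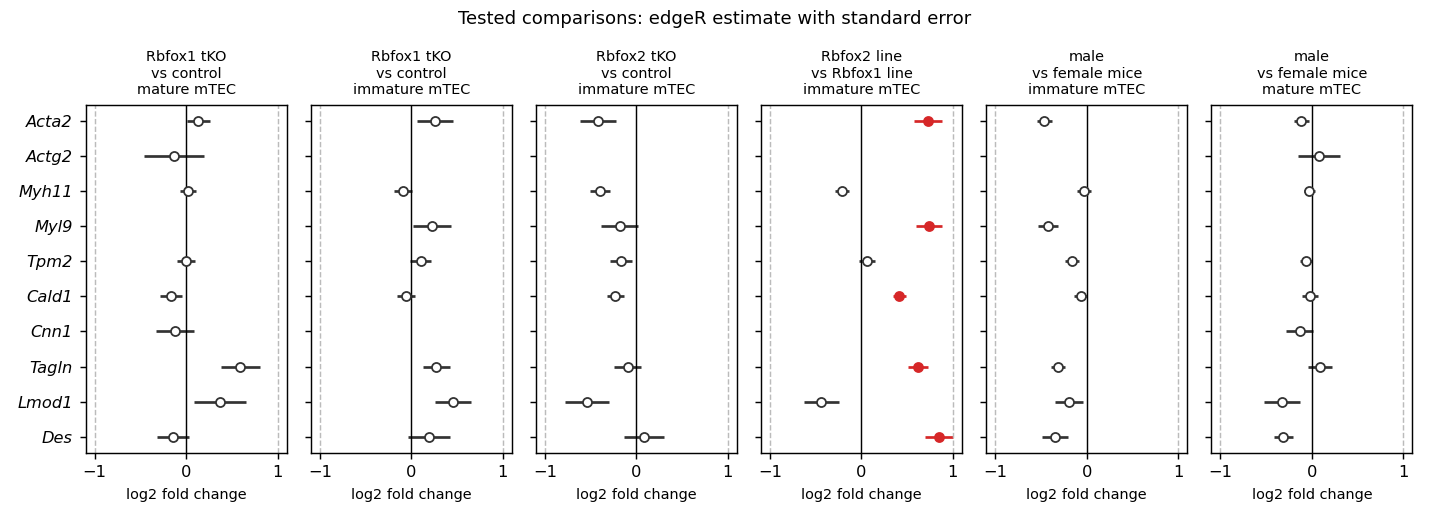
Log2 fold change (point) and standard error (bar) of each member with a mean of at least 20 counts per library in the 6 tested comparisons, with dashed lines at a 2-fold change. Filled red points have an adjusted p under 0.05 in edgeR, which holds for 5 members in the comparison of lines in immature mTEC, none of them past the 2-fold line. That comparison is not independent of how the genes were chosen.

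The 2 lines were also compared in immature mTEC, where Des, Myl9, Acta2, Tagln and Cald1 were higher in the Rbfox2 line. With 4 libraries per line and genotype as covariate, 5 of 8 members had an adjusted p under 0.05, all higher in the Rbfox2 line and all under 2-fold, so none was called. An adjusted p under 0.05 was found in 23.5% of 13060 genes, 11.3% being higher in the Rbfox2 line. The Rbfox2 mice are those whose mature libraries served in the choice, and these immature libraries entered the maturation contrast. The count of members is therefore not independent of the choice, and nothing is read from it. Differences between the lines were widespread: 35.7% of genes had an unadjusted p under 0.05, and 5.0% of 13060 genes were called. Des had 149, 168, 174 and 158 CPM in Rbfox2 mice and 114, 55.0, 109 and 82.6 CPM in Rbfox1 mice, which gave a log2 fold change of 0.85 (SE 0.15, adjusted p = 0.000519). Every Rbfox2 library was above every Rbfox1 library, a pattern found in 11.3% of all genes.

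Myl9 and Acta2 were also higher in the Rbfox2 line. Myl9 had 204, 213, 137 and 226 CPM against 119, 96.9, 155 and 96.8 CPM, a log2 fold change of 0.74 (SE 0.15, adjusted p = 0.00131), with the lines overlapping in 1 library each. Acta2 had 973, 1056, 608 and 887 CPM against 558, 403, 723 and 431 CPM, with 0.73 (SE 0.16, adjusted p = 0.00246), and the same pair of libraries overlapped. Tagln had 1076, 1147, 900 and 1158 against 695, 572, 905 and 628 CPM, with 0.62 (SE 0.11, adjusted p = 0.000457), and Cald1 gave 0.42 (SE 0.07, adjusted p = 0.000284).

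The heavy chain, tropomyosin and leiomodin did not pass. Myh11 had a log2 fold change of -0.21 (SE 0.08, adjusted p = 0.0610), Lmod1 -0.44 (SE 0.19, adjusted p = 0.102) and Tpm2 0.06 (SE 0.09, adjusted p = 0.678). In control mice alone, a split chosen after seeing the data, Acta2 was the 1 member called, with a log2 fold change of 1.07. The share of all genes called in that split was not taken. The Rbfox2 control mice are also those whose mature libraries served in the choice, so nothing is read from that call. In the full comparison of lines, not independent of the choice either, the median was 0.52 over the 8 members and 6.3e-05 over all genes. The labels give no sorting or sequencing batch, and line and any such batch cannot be told apart.

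Many other genes differed between the lines in immature mTEC, markers of other cell types among them. All 6 fibroblast markers were called higher in the Rbfox2 line (log2 1.72 for Dcn to 2.42 for Lum), with sums of 1847 to 2765 CPM against 342 to 706 CPM. Of 5 endothelial markers 4 were called higher (Pecam1, Cdh5, Kdr and Tie1), with sums of 63.9 to 207 against 21.8 to 61.1 CPM. Among 6 pericyte and mural markers tested Pdgfrb (1.33) and Abcc9 (1.56) were called higher and Cspg4 (-1.62) lower, with sums of 1597 to 2046 against 1519 to 1672 CPM. Of the mTEC markers Aire (-2.71) and Cd80 (-1.74) were called lower in the Rbfox2 line, and no marker of these lists was at 0 in a line. The part of these differences in those of the members was not tested.

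Of the genes that act on the contractile apparatus, Mylk, the kinase that phosphorylates the myosin light chain, was called higher in the Rbfox2 line (log2 1.21, SE 0.15, adjusted p = 1.56e-05), the 1 call of 7 contraction signalling genes tested. Srf was lower (-0.55, SE 0.09, adjusted p = 0.000180) and under the fold limit, and Mrtfa and Mrtfb did not pass. No gene of the 12 other cytoskeleton genes or of 10 non-muscle paralogs was called, while 4 of each list had an adjusted p under 0.05 and were higher. Among 5 striated muscle genes tested Ttn (-1.11) was called lower. In the other 5 comparisons no gene of these lists was called.

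Male and female mice were compared because each condition held 1 of each. Sex follows the replicate number within each line, and controls were littermates of the same sex by the published methods, so sex and litter cannot be told apart and the 4 conditions may hold only 2 litters per sex. In immature mTEC all 8 members had a lower estimate in males, against 49.4% of all genes, and none passed (0.0536% of 13060 genes were called). Acta2 had 403, 431, 973 and 608 CPM in males and 558, 723, 1056 and 887 CPM in females of the Rbfox1 control, Rbfox1 tKO, Rbfox2 control and Rbfox2 tKO groups, lower in the male of every condition. Its log2 fold change was -0.46 (SE 0.09, unadjusted p = 7.01e-05, adjusted p = 0.0763). Within lines the estimate was -0.60 in the Rbfox1 line and -0.32 in the Rbfox2 line.

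Myl9 and Tagln followed Acta2 in this comparison. Myl9 was at -0.42 (SE 0.11, adjusted p = 0.557) and Tagln at -0.31 (SE 0.07, adjusted p = 0.419), and both were lower in the male of all 4 conditions, as were 5.48% of all genes. Des was at -0.35 (SE 0.14, adjusted p = 0.9997), lower in the male of 3 conditions, while Myh11 was at -0.03. In mature mTEC, where the libraries include those used in the choice, the 10 members ran from -0.32 (Lmod1) to 0.09 (Tagln). The estimate was lower in males for 8 of them, against 50.5% of all genes, and none was called (0.0277% of 18021 genes were). Acta2 was at -0.12 (SE 0.08) and Des at -0.31 (SE 0.10, unadjusted p = 0.00624, adjusted p = 0.628) there. Des was the 1 member with an unadjusted p under 0.05, as 6.40% of all genes had. DESeq2 also called 0 members in both.

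Among the members themselves, the actin, the light chain and transgelin ran together in immature mTEC, and the heavy chain did not run with them. Over 8 immature libraries, on log2(CPM + 1), Acta2 correlated with Myl9 (Pearson r = 0.98, Spearman rho = 0.90), with Tagln (r = 0.97, rho = 0.93) and with Cald1 (r = 0.88, rho = 0.88). Without the 2 libraries farthest from the median of Acta2, r was 0.98, 0.95 and 0.84. Acta2 and Myh11 had r = -0.14 and rho = 0.02. Myh11 ran with Lmod1 (r = 0.79, rho = 0.76), a relation that rested on 2 libraries, as r was 0.03 without them. These points share line, sex and library depth, so the values describe the libraries and carry no test.

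In mature mTEC the values include those of the Rbfox2 mice that served to choose Acta2 and Tagln, so nothing is read from relations with these genes there. Acta2 and Tagln had r = 0.89 (rho = 0.79) over 8 libraries and 0.60 without the 2 farthest, which were the Rbfox2 controls, and Acta2 and Myl9 had 0.94 and 0.60. Myh11 and Tpm2 ran opposite to each other (r = -0.85, rho = -0.81, and -0.84 without the 2 farthest).

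**Figure D5:**
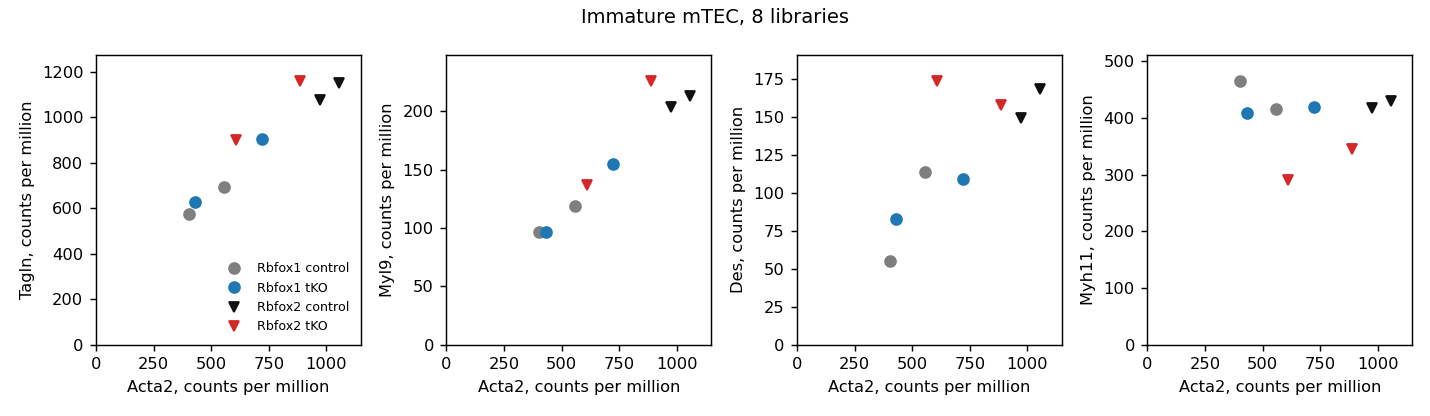
Tagln, Myl9, Des and Myh11 against Acta2 in the 8 immature libraries, all in CPM on axes that start at 0, 1 point per mouse. Tagln and Myl9 rise with Acta2 (Pearson r of 0.97 and 0.98 on the log2 scale), and Myh11 does not.

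Genes whose pattern was most like that of Acta2 were sought over the 16 libraries after the mean of each population was subtracted, among 13491 other genes with at least 5 CPM. They were Lbp (r = 0.97), Tgfbi (0.95), Myl9 (0.94), Zfp358 (0.91) and Anxa6 (0.91). For Tagln they were Myl12a (0.90), a non-muscle regulatory light chain, Cbr1 (0.90), Myl9 (0.88), Sgk1 (0.87) and Zyx (0.87). Myl9 was thus ranked 3 for both. Acta2 ranked 22 for Tagln and Tagln 66 for Acta2 (r = 0.81), and Myh11 ranked 8974 for Acta2 (r = -0.24). The libraries share line, sex and mouse, and include those used in the choice, so the ranks are a description with no test.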

How the data were processed

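The authors deposited whole-number read counts per gene for 16 libraries, without normalization, after removing duplicates and unmapped reads and down-sampling. Their processing notes list featureCounts 1.6.0, HISAT2 2.1.0 and Picard 2.10.9, on the build mm10. Names and positions are from GENCODE M21. The members and gene lists were chosen with earlier results of these data known. Levels are CPM on TMM library sizes over 16 libraries. Counts were tested with edgeR 4.0.16 (R 4.3.3; TMM within a population, filterByExpr with a minimum count of 10, quasi-likelihood test) on 18021 mature or 13060 immature genes, with Benjamini-Hochberg adjustment over all genes, and the script was tested on simulated data. Fold changes with errors are given for members with a mean of at least 20 counts per library. The 5 genes most like Acta2 or Tagln were named, and other list genes where called or most abundant. The values of 1 list gene are not reported here. Replicates are separate mice, and those of a group differed by 1.87 to 3.00 in chi-square per degree of freedom. Alternatives were DESeq2 1.42.0, its size factors, library totals, no filter, other thresholds, a replicate block and leaving out each mouse. Descriptions used Python 3.11.15.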

Additional observations from a re-analysis of the deposited data

Results flagged for a closer look

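In mature mTEC, tKO and control mice differed in opposite directions in the 2 lines, in every library, for 3 members, and the difference was not tested. The Rbfox2 contrast served to choose the genes, so a negative Rbfox2 minus Rbfox1 value was favoured in advance for Acta2 and Tagln. The pattern was found in 2.64% of 18021 genes, beside 3 of 10 members, and nothing is read from it. The Rbfox2 log2 ratio minus the Rbfox1 log2 ratio was -1.52 for Tagln (-0.93 and 0.59), -1.05 for Lmod1 (-0.68 and 0.37) and -0.79 for Acta2 (-0.66 and 0.13).

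Groups were checked for a library far from the rest and for differences between the lines. A total of 50 groups were looked at and 6 were flagged. Among groups of 4 libraries of 1 sex and state, each with 1 member, 3 held a library far from the other 3. Among males in mature mTEC these were Acta2 at 70.9 CPM in the Rbfox2 control and Actg2 at 8.68 CPM in the Rbfox2 tKO male. Among males in immature mTEC it was Lmod1 at 27.8 CPM in the Rbfox2 tKO male. Each of these groups held 1 library of each condition, so a far library and a difference between conditions cannot be told apart. The Acta2 value also belongs to the contrast used to choose the genes. Some far libraries arise by chance when many groups are looked at, and nothing is read from these values.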

How the results depend on the processing

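No member was called in any of the 6 comparisons with DESeq2, its size factors or no filter, or in the 3 tKO comparisons with the 4 libraries of the line alone or the replicate block (0 members called). Deviations of tKO and control mice of 1 number correlated by 0.0069 to 0.13 over all genes compared, and the main fits did not take the numbers as pairs. Such a correlation cannot show whether the members share a difference of sex or litter within a number. In the comparison of lines 5 members were called with no fold limit, 1 (Des, 1.06) without Rbfox1 control replicate 2 (0 to 1 over all mice left out), and 1 (Acta2, 1.07) in control mice only, an alternative chosen after seeing the data. The counts of 8 members lower in Rbfox2 tKO and 8 lower in mature mTEC stayed at 8 or 9 under each alternative, library totals included.

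Of 78 results under 798 alternatives, 37 values changed sign, all of uncalled fold changes. When 1 mouse was left out, log2 fold changes ran as follows. Rbfox1 tKO, mature: Myh11 -0.11 to 0.13, Cnn1 -0.28 to 0.042, Tpm2 -0.053 to 0.046, Cald1 -0.33 to 0.017, Des -0.45 to 0.25. Rbfox1 tKO, immature: Acta2 -0.15 to 0.58, Tagln -0.012 to 0.50, Myl9 -0.16 to 0.51, Tpm2 -0.073 to 0.26, Cald1 -0.18 to 0.051, Des -0.25 to 0.80. Rbfox2 tKO, immature: Tagln -0.28 to 0.080, Myl9 -0.58 to 0.14, Des -0.016 to 0.17. Males against females: Myh11 -0.099 to 0.034 in immature, and in mature mTEC Myh11 -0.087 to 0.051, Tpm2 -0.12 to 0.0058, Actg2 -0.042 to 0.28, Cald1 -0.11 to 0.096. Added splits also changed signs: between lines, Tpm2 -0.079 in tKO mice and Lmod1 0.025 in controls. By sex they were, in immature mTEC, Myh11 0.074 (Rbfox1 line) and Cald1 0.028 (Rbfox2 line), and in mature mTEC Myh11 0.10, Actg2 -0.044 and Cald1 0.15 (Rbfox2 line) and Cnn1 0.10 and Tpm2 0.011 (Rbfox1 line). With 2 mice per group, a mouse left out leaves a lone sample assumed to vary like the others, and genes under 20 counts per library have no estimate of their own.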
